A study of Rattus norvegicus with 9 samples.

Results

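The genes described here are 10 members of the fibroblast growth factor (FGF) pathway: the receptors Fgfr1, Fgfr2 and Fgfr3, the ligands Fgf1 and Fgf2, and the feedback and target genes Spry1, Spry2, Spry4, Etv5 and Dusp6. They were matched by gene name among the 34890 loci of the expression table, and all 10 were found at 1 locus each. They had been selected on their TPM in the 3 groups, which was known when they were picked, so their differences between groups are given as a description, with no test. RNA from the ipsilateral lumbar spinal cord of wild type male Sprague Dawley rats was sequenced in 3 groups of 3 samples, which the labels call biological replicates; ages are not given, and whether a sample is 1 rat is not stated. The JA group was sham-operated and received saline by gavage. The SNI group had spared nerve injury, in which the tibial and common peroneal nerves are tied off and cut while the sural nerve is spared, and also received saline. The PLM group had the same injury and received the middle dose of paeoniflorin with liquiritin, both plant glycosides. The study's methods give this dose as 20.65 mg/ml of paeoniflorin with 3.98 mg/ml of liquiritin for the whole group. In the sample labels the liquiritin is 3.98 mg/ml for PLM replicate 1, 3.99 mg/ml for replicate 2 and 3.100 mg/ml for replicate 3. All rats had an operation and daily gavage, and no group received the drugs without injury. Levels are in TPM, a transcript abundance with a fixed total per sample, which are scaled for gene length and can therefore be compared between genes.

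Fibroblast growth factors bind receptor tyrosine kinases together with heparan sulfate, and the activated receptors signal through Ras to the kinase ERK. ERK signaling induces its own brakes, among them the Sprouty proteins and the ERK phosphatase Dusp6, and it raises transcription factors of the ETS family such as Etv5, so these genes are often read as a transcriptional record of the pathway. In the adult spinal cord Fgfr3 is known mainly as a gene of astrocytes, whereas Fgfr1 and Fgfr2 are expressed by several cell types. In whole cord tissue, fewer cells of a type and less RNA per cell cannot be told apart.

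The promoters of 4 of the genes are shown to give the sequence at which the ETS factors of this pathway could bind. Fgfr3, Spry2 and Etv5 had the largest differences between PLM and SNI after median centring among the genes abundant enough to be fitted, and Dusp6 is an ERK feedback gene whose groups overlapped in TPM as deposited. Each sequence is the 250 bases before the RefSeq start of the gene in assembly GRCr8, on the strand of the gene and written 5′ to 3′, with the ETS core GGAA or its reverse complement TTCC in capitals. Windows were matched for 9 of the 10 genes, and that of Spry2 is the upstream one of its 2 starts. The windows lie at chr14:81227210-81227459 (minus strand) for Fgfr3, chr15:89111927-89112176 (minus strand) for Spry2, chr11:92113013-92113262 (plus strand) for Etv5 and chr7:35979354-35979603 (plus strand) for Dusp6.
Fgfr3: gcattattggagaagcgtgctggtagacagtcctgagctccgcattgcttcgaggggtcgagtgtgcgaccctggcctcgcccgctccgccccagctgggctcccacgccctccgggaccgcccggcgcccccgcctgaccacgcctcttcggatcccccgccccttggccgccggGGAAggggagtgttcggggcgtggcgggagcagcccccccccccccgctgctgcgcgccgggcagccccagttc
Spry2: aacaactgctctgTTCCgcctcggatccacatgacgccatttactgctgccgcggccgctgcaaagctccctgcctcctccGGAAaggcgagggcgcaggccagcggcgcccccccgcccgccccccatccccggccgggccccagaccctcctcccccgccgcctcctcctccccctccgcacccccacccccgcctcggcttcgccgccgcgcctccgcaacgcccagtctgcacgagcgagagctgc
Etv5: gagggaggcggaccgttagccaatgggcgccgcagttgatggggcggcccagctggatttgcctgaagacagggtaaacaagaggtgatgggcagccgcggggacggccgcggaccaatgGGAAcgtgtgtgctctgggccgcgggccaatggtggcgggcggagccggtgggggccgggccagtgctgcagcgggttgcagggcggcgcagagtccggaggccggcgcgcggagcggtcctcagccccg
Dusp6: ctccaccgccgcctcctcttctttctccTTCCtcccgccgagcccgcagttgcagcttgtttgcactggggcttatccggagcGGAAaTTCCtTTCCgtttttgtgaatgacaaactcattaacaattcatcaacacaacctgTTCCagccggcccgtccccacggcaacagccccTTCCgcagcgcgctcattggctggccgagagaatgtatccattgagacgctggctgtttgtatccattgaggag
The Fgfr3 window held 1 GGAA core, which began 74 bases before the start, and the Etv5 window 1, which began 130 bases before it. The Spry2 window held 2 and the Dusp6 window 6, while the window of the other Spry2 start, not shown, held 4. The core is common, since 93.2% of the 33469 windows of this length in the table held it on either strand, with a median of 3 matches. Among the other genes the Spry1 window held 0 matches, Fgfr2 held 2, Spry4 held 3, Fgf2 held 4 and Fgf1 held 6. The longer forms CCGGAAG and CAGGAAG, searched on both strands, were in 0 of the windows of these genes, against 7.27% and 10.2% of all windows. Each longer form contains the GGAA core, and no match says only that these letters are not in the window. The Fgfr3, Spry2 and Etv5 windows were rich in G and C, at 74.4%, 74.8% and 72.4%, against 55.6% for Dusp6 and a median of 51.2% over all windows. The window of the other Spry2 start had 61.6%. Fgfr2 had the richest window of the set, at 76.8%, and Fgf1 and Fgf2 had 46% and 46.8%.

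All 10 genes were detected in every sample, and the receptors Fgfr2 and Fgfr1 were the most abundant. Fgfr2 was highest in each group, with 59.4 ± 8.29 TPM in JA, 64.5 ± 3.03 TPM in SNI and 49.0 ± 2.18 TPM in PLM, where errors of levels are the SD over n = 3 samples here and below. Fgfr1 came next in each group, and Fgf1 after it, and the ranges of these 3 genes did not overlap within a group. In JA and SNI the ranges of Fgf1 and Fgfr3 overlapped, as did those of Fgfr3 and Spry2. In PLM the order changed below Fgf1, with Spry2 at 11.7 ± 0.473 TPM above Fgfr3 at 6.23 ± 1.09 TPM, and no overlap between them. In PLM the ranges of Fgfr3, Dusp6 and Etv5 overlapped. Fgf2 was the lowest gene in each group, at a mean of 1.00 TPM in JA, 1.03 TPM in SNI and 0.333 TPM in PLM. TPM keeps no read depth, so the counting error behind the low values is unknown.

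**Figure D1:**
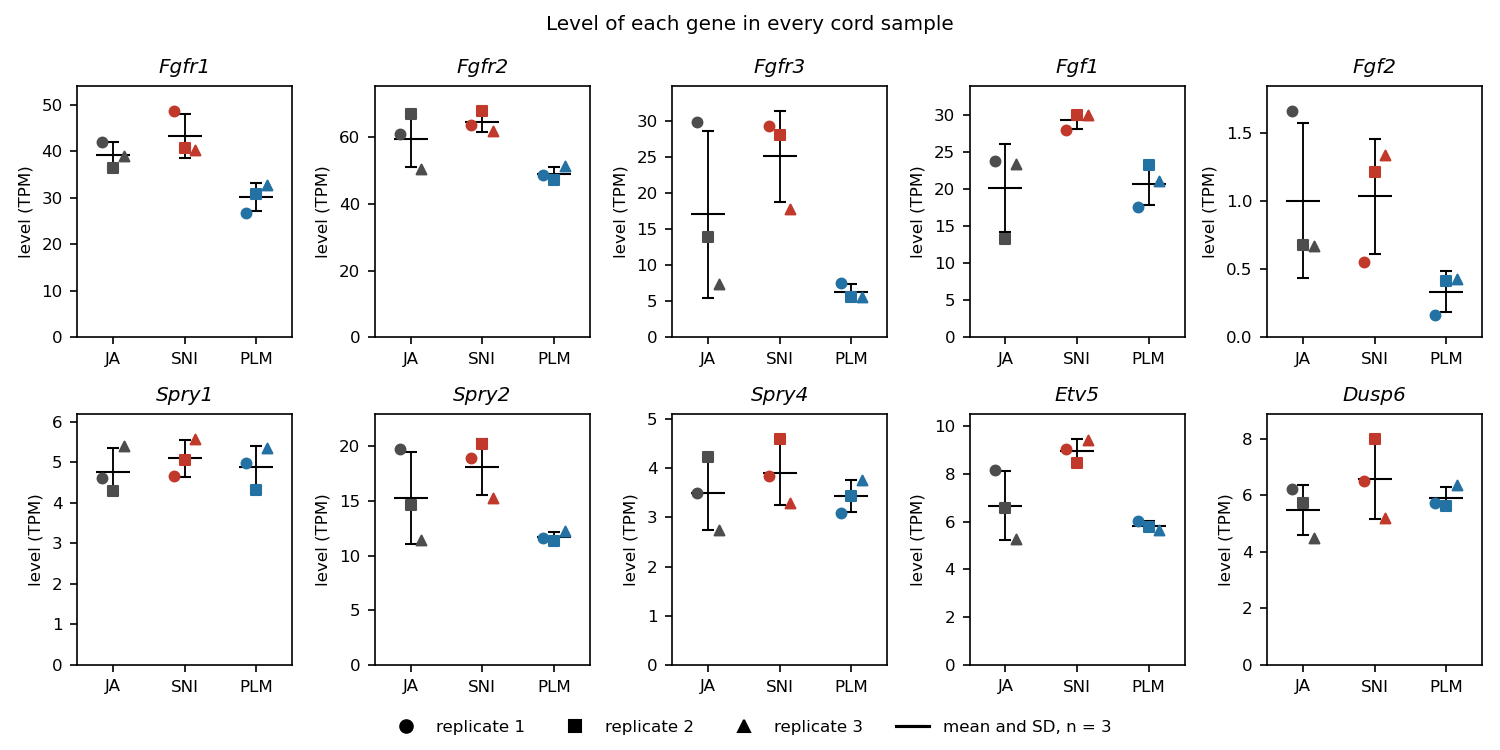
Level of each gene in TPM (vertical axis, from 0) in the JA, SNI and PLM samples; symbols mark replicates 1, 2 and 3, and bars the mean and SD (n = 3). Fgfr3 in PLM lies at 5.57 to 7.49 TPM, below the SNI samples at 17.82 to 29.31 TPM, while the JA samples spread from 7.30 to 29.83 TPM.

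Fgfr3 had the largest difference between SNI and PLM. Its level was 29.83, 13.89 and 7.30 TPM in JA replicates 1, 2 and 3, 29.31, 27.96 and 17.82 TPM in the SNI samples, and 7.49, 5.63 and 5.57 TPM in the PLM samples. The PLM samples were low and close together, every SNI sample was above them, and the JA samples ran from the SNI level down to the PLM level. The mean SNI level of 25.03 ± 6.28 TPM stood against 6.23 ± 1.09 TPM in PLM, a 4.02-fold difference. The untreated sham sample JA replicate 3, at 7.30 TPM, lay within the range of the PLM samples.

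Fgfr1 and Fgfr2 differed less. Fgfr1 was at 42.03, 36.51 and 39.05 TPM in JA, 48.69, 40.80 and 40.30 TPM in SNI, and 26.83, 30.92 and 32.84 TPM in PLM. Every PLM sample was below every sample of both other groups, while JA and SNI overlapped. Fgfr2 was at 60.90, 66.87 and 50.49 TPM in JA, 63.70, 67.85 and 61.94 TPM in SNI, and 48.59, 47.13 and 51.41 TPM in PLM. The PLM samples lay below all SNI samples, and JA replicate 3 lay within their range. By mean TPM, PLM was 30.2% lower than SNI for Fgfr1, 24.0% lower for Fgfr2 and 75.1% lower for Fgfr3.

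Because the receptors differed by unequal amounts, their mix differed as well, and this share does not depend on the scaling of a sample. Fgfr3 made up 22.5%, 11.8% and 7.54% of the summed TPM of the 3 receptors in JA, 20.7%, 20.5% and 14.8% in SNI, and 9.03%, 6.73% and 6.20% in PLM. The SNI and PLM samples did not overlap, and JA replicate 3 lay within the PLM range. The receptors summed to 115.6 ± 18.0 TPM in the sham group, 132.8 ± 11.3 TPM after injury and 85.5 ± 3.79 TPM with the drugs. The ratio of Fgfr1 to Fgfr2 overlapped between all groups, with means of 0.670 ± 0.115 in JA, 0.672 ± 0.0836 in SNI and 0.616 ± 0.0557 in PLM.

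**Figure D2:**
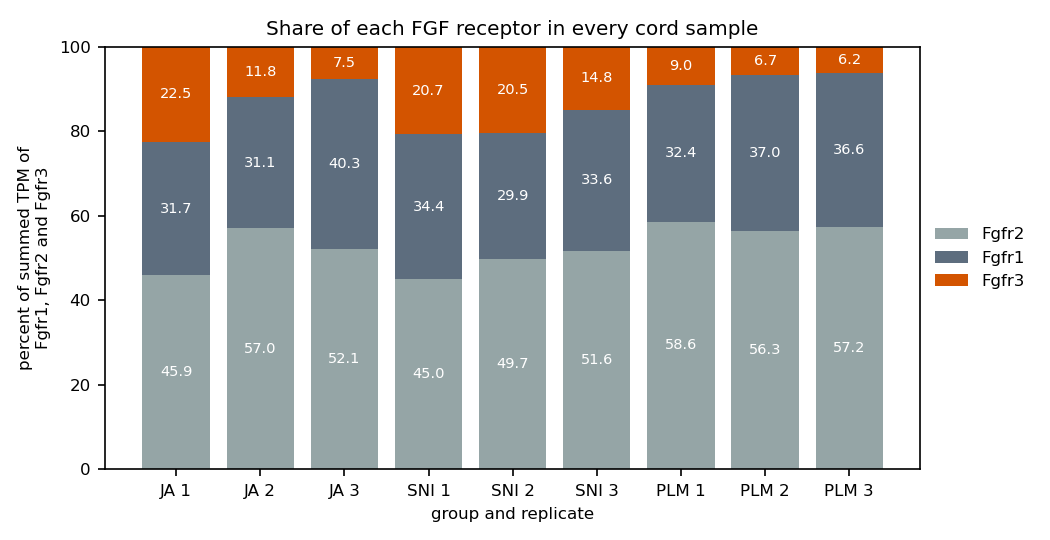
Share of Fgfr2, Fgfr1 and Fgfr3 in the summed TPM of the 3 receptors (vertical axis, percent) in each of the 9 samples. Fgfr3 takes 14.8% to 20.7% in the SNI samples and 6.20% to 9.03% in the PLM samples.

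The ligands Fgf1 and Fgf2, acidic and basic FGF, are both exported without a classical secretion signal. Fgf1 was at 23.80, 13.26 and 23.39 TPM in JA, 27.94, 29.98 and 30.06 TPM in SNI, and 17.61, 23.25 and 21.08 TPM in PLM. The SNI samples were above all JA and all PLM samples, and JA and PLM overlapped. Fgf2 was at 1.66, 0.68 and 0.67 TPM in JA, 0.55, 1.21 and 1.34 TPM in SNI, and 0.16, 0.41 and 0.43 TPM in PLM. Every PLM sample was below every other sample, and the mean was 67.7% lower in PLM than in SNI. The gene was too low to be fitted in the comparisons with PLM. In the RefSeq annotation of GRCr8 Fgf1 overlaps Arhgap26 and Fgf2 overlaps Nudt6, and whether reads were counted by strand is not stated, so reads of these partners may be shared. Arhgap26 was at 3.82 to 5.35 TPM in JA, 5 to 5.91 TPM in SNI and 3.52 to 4.49 TPM in PLM. Its SNI and PLM ranges were apart, like those of Fgf1, but its JA range overlapped both. Nudt6 was at 8.79 to 11 TPM in JA, 10.54 to 12.08 TPM in SNI and 7.94 to 8.46 TPM in PLM. Its PLM range thus lay under the ranges of both other groups, as for Fgf2. The part of shared reads in the Fgf1 and Fgf2 differences was not tested.

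Among the Sprouty genes, which restrain receptor tyrosine kinase signaling upstream of ERK, only Spry2 had separate SNI and PLM levels. Spry2 was at 19.79, 14.66 and 11.41 TPM in JA, 18.96, 20.18 and 15.27 TPM in SNI, and 11.59, 11.36 and 12.27 TPM in PLM. The PLM samples lay in a narrow band below all SNI samples, and JA replicate 3 lay within it. Spry1 was at 4.29 to 5.41 TPM in JA, 4.67 to 5.58 TPM in SNI and 4.32 to 5.36 TPM in PLM, and Spry4 at 2.75 to 4.24, 3.29 to 4.60 and 3.10 to 3.76 TPM, so that all 3 groups overlapped for both. The ratio of Spry2 to Spry1, in which the scaling of a sample cancels, was 4.28, 3.42 and 2.11 in JA, 4.06, 3.98 and 2.74 in SNI, and 2.33, 2.63 and 2.29 in PLM. Every SNI ratio was above every PLM ratio, and JA spanned both.

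Etv5, an ETS transcription factor induced by FGF signaling, and Dusp6, a phosphatase that inactivates ERK in the cytoplasm, did not have the same pattern. Etv5 was at 8.15, 6.57 and 5.26 TPM in JA, 9.05, 8.46 and 9.43 TPM in SNI, and 6.04, 5.78 and 5.67 TPM in PLM. The SNI samples were above all JA and all PLM samples, and the PLM samples were closely grouped within the JA range. Dusp6 was at 6.22, 5.72 and 4.50 TPM in JA, 6.50, 7.99 and 5.20 TPM in SNI, and 5.71, 5.60 and 6.36 TPM in PLM, and all groups overlapped. The ratio of Etv5 to Dusp6 was 1.39, 1.06 and 1.81 in SNI and 1.06, 1.03 and 0.892 in PLM. These ratios lay apart by a small margin, since SNI replicate 2, at 1.059, was close to PLM replicate 1, at 1.058.

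The comparison of PLM with SNI addresses what the drug combination changed in injured rats. Differences were fitted on log2(TPM + 1) with limma over all loci whose mean in the 6 samples reached 1 TPM, a scale that understates the change of low genes. Fgf2 was below this limit, and 9 of the 10 genes were fitted. The differences of PLM minus SNI were -1.83 (SE 0.21) for Fgfr3, -0.58 (SE 0.11) for Spry2, -0.55 (SE 0.08) for Etv5, -0.50 (SE 0.11) for Fgfr1, -0.49 (SE 0.11) for Fgf1 and -0.39 (SE 0.06) for Fgfr2. These are the 6 of the 9 fitted genes whose SNI and PLM samples did not overlap, and Fgf2, which was not fitted, did not overlap either. Spry4, Dusp6 and Spry1 had differences of -0.14, -0.12 and -0.05, smaller than that of the median locus. The median of the 9 genes was -0.49, and that of all 15474 loci tested was -0.21.

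The 6 of 9 fitted genes without overlap stand beside 41.9% of all loci tested, for which every PLM sample was likewise below every SNI sample. The genes were chosen for this contrast, so nothing is read from this count.

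A general downward shift was present in PLM, so each sample was also centred on its median over loci. The 13 mitochondrial protein genes took 31.3% to 32.8% of TPM in PLM, 23.7% to 26.1% in SNI and 25.3% to 32.8% in JA, and with TPM rescaled without them the median of the 9 genes was -0.36 in place of -0.49 and the Fgfr3 difference -1.73. After centring, the difference of PLM minus SNI was -1.58 (SE 0.21) for Fgfr3, -0.33 for Spry2, -0.30 for Etv5, -0.26 for Fgfr1, -0.25 for Fgf1 and -0.14 for Fgfr2. The direction of Spry1, Spry4 and Dusp6 turned, to 0.19, 0.10 and 0.13. The median of the 9 genes became -0.25, beside 0.04 for all loci. Fgf1 then overlapped between the groups, and the 5 genes that remained apart stand beside 9.73% of all loci. Fgf2 overlapped as well, with 0.47, 1.03 and 1.13 in SNI and 0.41, 0.61 and 0.59 in PLM in centred log2(TPM + 1). Left out one at a time, the samples kept the Fgfr3 difference as deposited between -2.05 and -1.70.

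**Figure D3:**
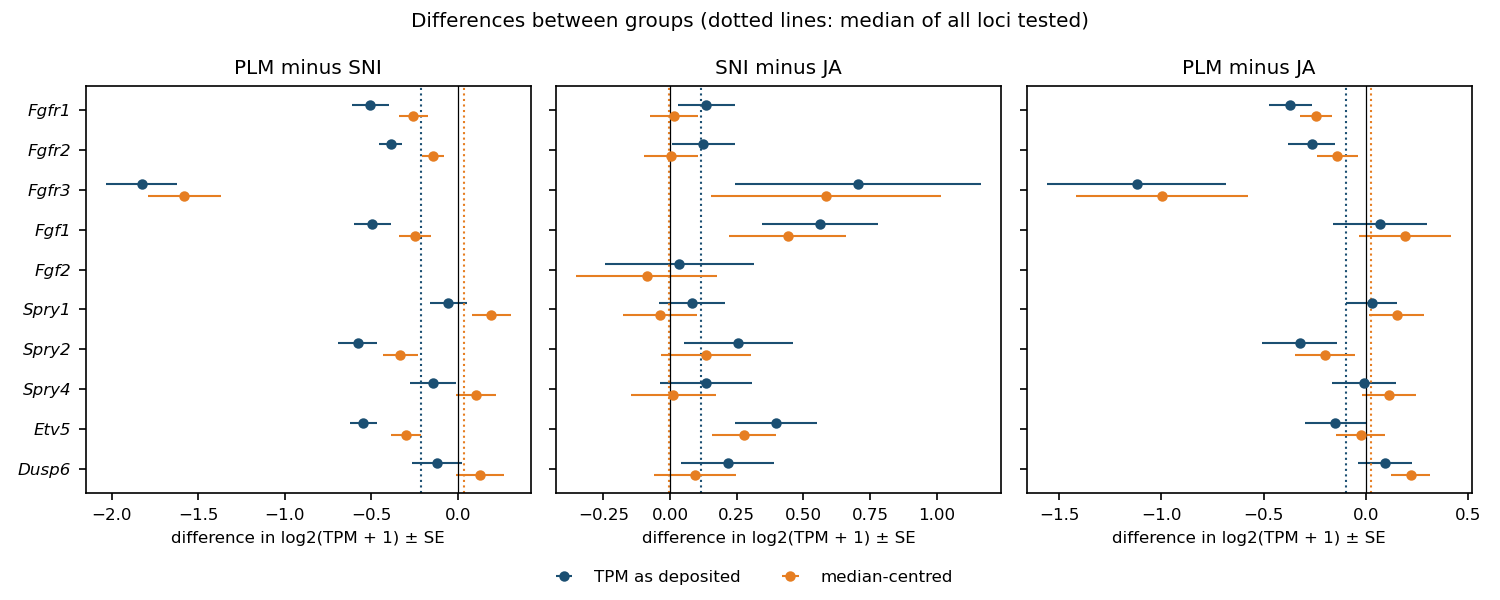
Difference in log2(TPM + 1) with its SE (horizontal axis) for each gene in PLM minus SNI, SNI minus JA and PLM minus JA, as deposited and after median centring; dotted lines mark the median of all loci tested on each scale. In PLM minus SNI, Fgfr3 lies at -1.83 and -1.58, while Spry1, Spry4 and Dusp6 cross 0 once centred.

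The comparison of SNI with JA addresses the effect of the injury itself, and here the 10 genes differed little beyond the spread of the sham samples. The mean of each of the 10 reached 1 TPM. Fgf1 and Etv5 were higher in every SNI than in every JA sample, with differences of 0.56 (SE 0.22) and 0.40 (SE 0.15), and of 0.44 and 0.28 after centring. These 2 of 10 stand beside 12.1% of all loci that were higher in SNI without overlap, and 4% after centring. Fgfr3 had the largest difference, 0.71, with an SE of 0.46. Without JA replicate 3 the Fgfr3 difference was 0.25, and without JA replicate 1 it was 1.20, so its size and its place above Fgf1 rest on single sham samples. The differences of Fgfr1, Fgfr2, Spry1, Spry2, Spry4, Dusp6 and Fgf2 lay between 0.03 and 0.26 as deposited and between -0.09 and 0.13 after centring. The median of the 10 genes was 0.18, beside 0.12 for all 15557 loci tested, and without SNI replicate 3, where Fgf2 was too low to be fitted, the median of the other 9 was 0.35. Neuron markers also had higher levels in SNI, with a median difference of 0.38, or 0.26 after centring, and 12 of 12 above 0 on both scales. Their summed level was 5259, 2764 and 3244 TPM in JA and 5133 to 6482 TPM in SNI, and their part in the differences of the FGF genes was not tested.

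In PLM against JA, Fgfr3 had a difference of -1.12 (SE 0.44), or -0.998 after centring, and Fgfr1 one of -0.37 (SE 0.10), or -0.24. Of the 9 genes fitted, Fgfr1 was the one whose PLM samples were all below the JA samples, beside 15.7% of all loci. Fgfr3 overlapped through JA replicate 3. With 1 sample left out its difference ran from -1.58, without JA replicate 3, to -0.63, without JA replicate 1. The other 7 genes fitted lay between -0.32 and 0.10 as deposited. In centred log2(TPM + 1) Dusp6 was at 2.94, 2.83 and 2.95 in PLM and 2.76, 2.76 and 2.54 in JA. Every PLM sample was thus above every JA sample, beside 1460 of 15349 loci higher without overlap after centring. Fgf1 differed by 0.07 and Etv5 by -0.15 as deposited, so for both the PLM mean was nearer to the sham than to the injured mean. After centring Fgf1 was about midway, with means of 4.36 in JA, 4.55 in PLM and 4.80 in SNI. With 1 sample left out its difference as deposited ran from -0.19 to 0.21. PLM is compared with both JA and SNI, and JA with both injured groups, so these comparisons share samples and are not independent of each other.

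Astrocyte markers had the largest difference between PLM and SNI of the marker lists. All 14 astrocyte markers, among them Gfap, Aqp4 and Aldh1l1, were listed and none was at 0. Their summed level was 7247 to 8467 TPM in SNI, 4051 to 4676 TPM in PLM and 5168 to 8226 TPM in JA, with the lowest JA value in replicate 3. In PLM minus SNI, 13 of the 14 were lower at an adjusted p under 0.05 (limma), beside 13.6% of all loci, and 9 of 14 after centring, beside 0.685%, with medians of -1.24 and -0.99. In SNI minus JA 0 of the 14 passed, with a median of 0.40. In PLM minus JA 0 of the 14 passed as well, with a median of -0.86, or -0.74 after centring, and 14 of 14 below 0. Their part in the differences of the FGF genes was not tested. Measured against the mean log2(TPM + 1) of the astrocyte markers in the same sample, the difference of PLM minus SNI was -0.62 for Fgfr3 on the log2 scale, and 0.61 to 1.15 for the other 9 genes. The ratio of Fgfr3 to the gap junction gene Gja1 was 0.245, 0.233 and 0.189 in SNI and 0.179, 0.160 and 0.146 in PLM, so that these samples also lay apart relative to this marker. They lay apart as well relative to Slc1a3, at 0.430 to 0.585 in SNI and 0.249 to 0.357 in PLM, and to Aldh1l1, at 0.973 to 1.42 in SNI and 0.601 to 0.839 in PLM. JA overlapped PLM in each ratio, at 0.176 to 0.274 for Gja1, 0.280 to 0.629 for Slc1a3 and 0.621 to 1.32 for Aldh1l1. The PLM minus SNI differences of Gja1, Slc1a3 and Aldh1l1, at -1.51, -1.13 and -1.12, were smaller in size than that of Fgfr3. That of Gjb6, at -1.76, was close to it, and that of Slc1a2, at -1.95, was larger in size.

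JA replicate 3 was below the mean of JA replicates 1 and 2 in most of these genes, though these replicates also differed from each other. Fgf2 was at 0.67 TPM in replicate 3, 0.68 TPM in replicate 2 and 1.66 TPM in replicate 1. Fgfr3 was at 29.83 TPM in replicate 1 and 13.89 TPM in replicate 2. Relative to the mean of JA replicates 1 and 2, the log2 level of JA replicate 3 differed by -1.37 for Fgfr3, -0.54 for Spry2, -0.41 for Etv5 and -0.37 for Spry4, by -0.34 for Dusp6, -0.34 for Fgf2 and -0.33 for Fgfr2, but by 0.00 for Fgfr1, 0.38 for Fgf1 and 0.23 for Spry1. The median over the 10 genes was -0.34, with 8 of 10 below 0, Fgfr1 among them at -0.0045, and that over all loci was -0.11. The astrocyte markers had a median of -0.86, with 14 of 14 below 0. Summed Schwann cell markers, which come from peripheral nerve, were at 7957 TPM in this sample, against 130.7 and 700.5 TPM in the other sham samples, 588.7 to 4537 TPM in SNI and 281.3 to 3340 TPM in PLM. They varied widely within every group.

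Schwann cell markers had a median difference of -0.66 in PLM minus SNI, with 8 of 8 below 0, and of -0.41 after centring, and a median of 0.54 in SNI minus JA. Meningeal markers had a median of -0.61 in PLM minus SNI, with 6 of 6 below 0, and of -0.36 after centring. In PLM minus JA the meningeal median was -1.01, or -0.88 after centring. As deposited the Schwann cell and meningeal medians in PLM minus SNI were larger in size than the -0.49 of the FGF genes, and the part of these markers in the results was not tested. Of the 12 neuron, 10 oligodendrocyte, 6 oligodendrocyte precursor, 8 endothelial, 4 ependymal, 8 Schwann cell and 5 blood markers tested, 0 passed an adjusted p under 0.05 (limma). Of the 10 microglia and 6 meningeal markers, 1 in each list was lower. Neuron and oligodendrocyte markers were present in every sample labelled as spinal cord, with summed oligodendrocyte markers of 46463 to 56673 TPM.

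**Figure D4:**
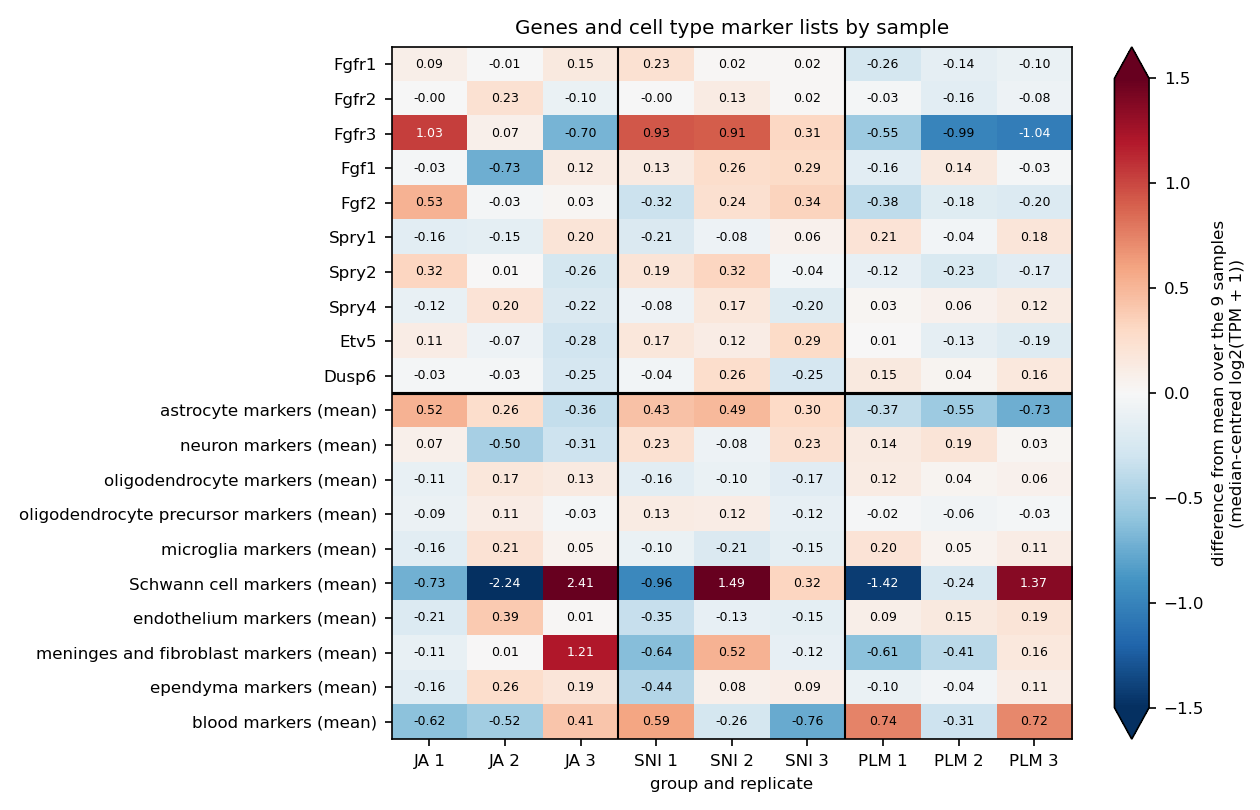
Difference of each gene, and of the mean of each cell type marker list, from its own mean over the 9 samples, in median-centred log2(TPM + 1); columns are samples, and the largest differences exceed the colour scale. Fgfr3 and the astrocyte markers are both below their means in the PLM samples and in JA replicate 3, and above them in the SNI samples.

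Among the genes most like Fgfr3 across the 9 samples, by Pearson's r of median-centred log2(TPM + 1) over 12248 named loci, were Fam151a, Extl1 and Bcan, each at 0.99. These points come from 3 groups and share their libraries, and no p is given. With the group means removed the values were 0.99 for Fam151a, 0.98 for Extl1 and 0.99 for Bcan. Bcan encodes the matrix proteoglycan brevican. It was at 109.22, 102.46 and 79.39 TPM in SNI, 33.23, 29.59 and 29.55 TPM in PLM, and 92.07, 60.43 and 35.98 TPM in JA. The SNI samples were far above the PLM samples, and JA replicate 3 was close to the PLM level.

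Of the set itself, Spry2 was nearest to Fgfr3, with r = 0.94 and rank 115 of 12248. Etv5 had r = 0.78 (rank 625), Fgfr1 0.60 and Fgfr2 0.58. Fgf1 had r = 0.13, Dusp6 -0.02, Spry4 -0.14 and Spry1 -0.74. With the group means removed, r stayed at 0.95 for Spry2, 0.72 for Etv5 and -0.63 for Spry1. It moved to -0.14 for Fgfr1, 0.29 for Fgfr2, -0.19 for Fgf1, 0.60 for Dusp6 and 0.24 for Spry4, so the order of these genes rests on how the groups are treated. The Sprouty genes ran from rank 115 for Spry2 to rank 11654 for Spry1. The genes most like Etv5 were Astn2, Get1, Tmem185a and Klhl36, with r between 0.96 and 0.98. Its r with Dusp6 was -0.05.

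Of 100 other FGF and ERK pathway genes listed from general knowledge, 99 were in the table and 80 were tested in PLM against SNI. At a Benjamini-Hochberg adjusted p under 0.05, 11 were lower and 0 higher (limma), which is 13.8% of the 80 beside 13.6% of all loci. The median difference was -0.22, beside -0.21 for all loci, and 69 of 80 lay below 0, as did 85.0% of all loci. After centring 2 were lower, 2.5% beside 0.685% of all loci, with a median of 0.03. Past an unadjusted p under 0.05 and an absolute log2 difference above 1 there were 2, both lower, beside 1.42% of all loci. Without any 1 sample the count at the adjusted threshold as deposited was 2 to 5. The share of pathway genes that passed as deposited was near that of all loci.

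By role, 0 of 6 other FGF ligands, 0 of 4 intracellular FGF homologous factors, 2 of 5 other receptors, co-receptors and binding proteins, 3 of 26 adaptors and members of the Ras-ERK cascade, 3 of 29 other ERK feedback and target genes, and 3 of 10 other receptor tyrosine kinases were lower. Ntrk2, the receptor for BDNF, fell in PLM, from 56.2 ± 6.50 to 26.6 ± 1.02 TPM, a difference of -1.05 on the log2 scale (SE 0.09, adjusted p = 0.00526, limma). Lrig1, a membrane protein that promotes the removal of receptor tyrosine kinases, fell from 7.58 ± 0.537 to 3.41 ± 0.212 TPM, a difference of -0.96 (SE 0.09, adjusted p = 0.00541, limma). Both also passed after centring, with differences of -0.80 and -0.71 (adjusted p = 0.0274 and 0.0263, limma), and in 6 of 6 fits without 1 sample. Over 15 alternatives the adjusted p of Ntrk2 was 0.00162 to 0.103 and that of Lrig1 0.00270 to 0.136. JA replicate 3 was the lowest sham sample for both, at 28.44 TPM for Ntrk2 and 4.42 TPM for Lrig1.

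Ret and Ntrk3, receptors for GDNF family ligands and for neurotrophin-3, passed as deposited with differences of -0.74 and -0.57 (adjusted p = 0.0206 and 0.0221, limma) but not after centring (adjusted p = 0.142 and 0.145). Of the 6 fits without 1 sample, Ret passed in 1 and Ntrk3 in 2. Fgfrl1, an FGF receptor that lacks the kinase domain, was at 6.26, 6.63 and 5.57 TPM in SNI and 4.01, 3.82 and 3.45 TPM in PLM. Its difference was -0.59 (adjusted p = 0.0227, limma), and -0.34 after centring (adjusted p = 0.197), and it passed in 2 of the 6 fits without 1 sample. Elk1, an ETS factor phosphorylated by ERK, had a difference of -1.41 (adjusted p = 0.0380, limma), and -1.16 after centring (adjusted p = 0.167), and its adjusted p was 0.0563 to 0.309 over 14 alternatives. It was listed at 0 in JA replicate 2 and PLM replicate 2 and at 5.36 TPM in JA replicate 1, so its values were unstable within groups.

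Mapk3, which encodes the kinase ERK1, differed by -0.17 (adjusted p = 0.132, limma) and by 0.08 after centring. Among the genes closest to the set, Etv4, a relative of Etv5, differed by -0.46 (adjusted p = 0.0686, limma), and Il17rd, an inhibitor of FGF signaling also called Sef, by -0.50 (adjusted p = 0.122). Spred1, a Sprouty-related inhibitor, differed by -0.21 (adjusted p = 0.154, limma), and the ligand gene Fgf9 by -0.20 (adjusted p = 0.132). After centring these differences were -0.21 for Etv4, -0.26 for Il17rd, 0.04 for Spred1 and 0.04 for Fgf9, so that the last 2 turned. Fgfr4, at 0.21 to 0.52 TPM, and Egfr, at 0.09 to 0.43 TPM over the 9 samples, were below the limit on the mean and were not tested.

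**Figure D5:**
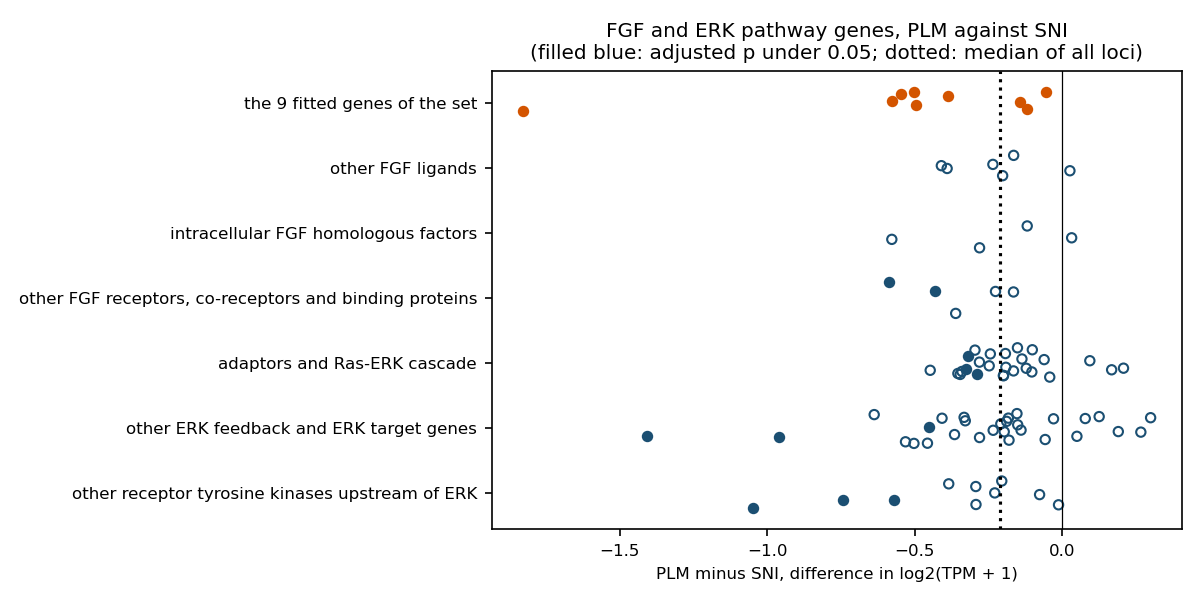
Difference in log2(TPM + 1) of PLM minus SNI (horizontal axis) for the 9 fitted genes of the set and for 80 other pathway genes by role; filled blue points passed an adjusted p under 0.05, and the dotted line marks the median of all loci at -0.21. Ntrk2, at -1.05, and Elk1, at -1.41, are the pathway genes below -1.

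In SNI against JA, 0 of 80 pathway genes passed an adjusted p under 0.05 (limma), as did 0 of all loci, and 3 had an unadjusted p under 0.05, as did 1104 of all loci. Dusp1, an immediate early phosphatase, passed both thresholds, beside 0.688% of all loci, with 39.73, 19.67 and 55.82 TPM in JA and 55.02, 104.55 and 79.15 TPM in SNI. Its difference was 1.10 (adjusted p = 0.614, limma), and the groups overlapped. It was not past both thresholds after centring, with a difference of 0.98, nor with quantile normalization, with the replicate block, or without JA replicate 2, SNI replicate 2 or SNI replicate 3. In PLM against JA, 0 of 79 passed an adjusted p under 0.05, beside 0.0195% of all loci. An unadjusted p under 0.05 was reached by 9 of the 79, as it was by 1809 of all 15349 loci.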

How the data were processed

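RNA-seq of 9 cord samples was analysed, with samples grouped by their labels. According to the study's methods the authors trimmed reads, mapped them with HISAT2 and computed expression with StringTie. The authors deposited 1 table of TPM values, whose unit is inferred from column sums of 1000000. The submitters' processing notes name CASAVA, fastp 0.19.5, StringTie and the human build GRCh38.p13, while the table holds rat Ensembl identifiers, so the rat build used for mapping is not given in the sources used here. TPM keeps no read depth, so no counting error is given.

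Groups were compared in pairs on log2(TPM + 1) with limma 3.58.1 in R 4.3.3 (variance trend, two-sided), for loci whose mean over the 6 samples reached 1 TPM, and p-values were adjusted by Benjamini-Hochberg over all loci tested. The called thresholds, an unadjusted p under 0.05 and an absolute log2 difference above 1, are those of the study's methods, which used another tool on counts. p-values measure the spread between these samples only. The members and lists were chosen with earlier results of these data known. Other genes were named by a rule: in each comparison up to 4 lower and 4 higher pathway genes with the smallest p among those at an adjusted p under 0.05, every pathway gene past both thresholds, and a fixed list whatever their values (Fgfr4, Fgf9, Fgfrl1, Spred1, Il17rd, Etv4, Mapk3 and Egfr among them), plus the 4 genes most like Fgfr3 and Etv5, leaving out names given only as locus numbers. Results of some genes that this rule names are not reported here. Promoter windows came from RefSeq (GRCr8). The fits were tested on simulated data. Alternatives were median centring, rescaling without the 13 mitochondrial genes, quantile normalization, a pseudocount of 0.1, other filters, fits with a replicate block, a fit to all 9 samples, and leaving out each sample.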

Additional observations from a re-analysis of the deposited data

How the results depend on the processing

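Limits are 3 samples per group, an unknown read depth and a shift of most loci between groups. The median difference of the fitted FGF genes in PLM minus SNI was -0.49, and it was -0.25 after median centring (also with the replicate block), -0.36 without the mitochondrial genes, -0.26 with quantile normalization, and -0.52 to -0.39 without any 1 sample. Relative to the astrocyte markers, an alternative chosen after seeing the data, it was 0.71, and the medians in SNI minus JA and PLM minus JA were -0.22 and 0.67, in place of 0.18 and -0.15. With each sample left out the SNI minus JA median was 0.12 to 0.35, highest without SNI replicate 3, where Fgf2 was not fitted and the median is over 9 genes, as it is without SNI replicate 2 or JA replicate 1. The 11 pathway genes lower in PLM than in SNI became 2 after centring, without the mitochondrial genes or with quantile normalization, 7 with no filter, 3 in a fit to all 9 samples, 2 to 5 with each sample left out, and 2 past both thresholds. Loci past both thresholds in PLM against SNI numbered 255, and 166 after centring, against 2148 at an adjusted p under 0.05, which became 126 after centring, 152 with the replicate block, 486 in the fit to all 9 samples and 275 to 1494 without any 1 sample. In SNI against JA they numbered 107, and 40 with 1 TPM required in every sample, against 0 at an adjusted p under 0.05. There 0 pathway genes passed the adjusted threshold and 1, Dusp1, both thresholds, which it did not pass after centring, with quantile normalization or with the replicate block. In PLM against JA they numbered 144, and 71 with 1 TPM required in every sample, against 3 at an adjusted p under 0.05. With each sample left out they were 121 to 228, the latter without JA replicate 3. The cause of these changes was not tested.

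Same-numbered samples of SNI and PLM did not deviate together (r = 0.03, -0.02 and -0.01 for replicates 1, 2 and 3), so the numbers are not taken to pair samples. With the replicate number as a block, 2 pathway genes were lower in PLM than in SNI, 0 with centring as well, and 283 loci passed both thresholds. Under the alternatives run, apart from the astrocyte-relative scale, 0 results past a threshold changed direction, while differences close to 0, among them those of Spry1, Spry4 and Dusp6 in PLM minus SNI and of Fgf2 in SNI minus JA, turned on centring.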
